A study of Mus musculus with 30 samples.

Results

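The Bcl2 family genes Bcl2l1, Mcl1, Bcl2, Bax, Bak1, Bid, Bcl2l11, Bbc3 and Pmaip1 were followed in MEL cells with and without Abcb10. The rule takes the 9 genes by name and uses no measured value, and they are 9 of the 54532 genes in the count table. MEL cells are a murine erythroleukemia line that starts to make hemoglobin when dimethyl sulfoxide (DMSO) is added. RNA was sequenced from WT cells and from Abcb10 knockout cells (Abcb10-null) without treatment (day 0) and after 2 days or 5 days in 1.5% DMSO, with 5 libraries in each of the 6 groups and 30 in all. The Abcb10-null cells were clone 12, a single clone made with CRISPR/Cas9 directed at exon 1 of Abcb10 in the DS19 line, so a difference between genotypes and a difference between a clone and its parental line cannot be told apart.

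Cell death through mitochondria is set by the balance within this family. Pro-survival members (Mcl1, Bcl2 and Bcl-xL, the product of Bcl2l1) hold the effectors Bax and Bak1 in check at the outer mitochondrial membrane, and BH3-only members (Bid, Bim from Bcl2l11, Puma from Bbc3, Noxa from Pmaip1) bind the pro-survival proteins or the effectors and tip the balance towards release of cytochrome c. In erythroid cells Bcl-xL is known for protecting late precursors, and its gene lies downstream of the erythropoietin receptor, Stat5 and Gata1.

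The libraries held 9906783 to 20157768 counts each, with a median of 16492116.5. Levels are given in CPM, the counts of a gene scaled to a common library size with TMM factors, and as CPM per kilobase of exon (FPKM) where genes are compared with each other. The targeted gene followed the labels. Abcb10 stood at 112 to 126 CPM in WT and 67.2 to 79.4 CPM in Abcb10-null cells at day 0, at 475 to 661 against 162 to 312 CPM at day 2 and at 1152 to 1264 against 177 to 237 CPM at day 5. The 10 erythroid markers checked were detected in every group. Among them were the globin genes Hbb-bs and Hba-a1, in libraries depleted of globin RNA. At day 0, 1 was higher and 3 were lower without Abcb10 of 9 tested, and at day 2, 6 of 10 were lower. At day 5 all 10 were lower (median log2 fold change -1.47). Of all genes tested, 36.0%, 31.8% and 37.6% differed between genotypes at days 0, 2 and 5. Of 15 markers of other cell types, the megakaryocyte genes Pf4 and Itga2b carried most of the signal, and the other 13 summed to at most 20.4 CPM in any library. At day 0, 4 of the 6 of these 15 that could be tested were higher in Abcb10-null cells, and their part in the day 0 results was not tested. In bulk RNA, fewer cells of a type and less RNA per cell cannot be told apart. Several libraries stood apart from their group. Abcb10-null day 2 replicate 2, WT day 5 replicates 2 and 5 and Abcb10-null day 5 replicate 4 lay farthest from the rest of their groups, and WT day 2 replicates 1 and 2 and WT day 5 replicate 2 were rich in reads from long genes.

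Per kilobase of exon, Mcl1 was by far the most abundant of the 9 transcripts in every group. Its mean level ran from 181 FPKM in WT cells at day 2 to 262 FPKM in WT cells at day 5. Mcl1 made up 91.8% to 97.1% of the summed FPKM of Mcl1, Bcl2 and Bcl2l1, as group means. Bcl2 made up 2.74% to 7.86% and Bcl2l1 0.122% to 0.460% of the same sum. Bcl2l1, the gene of Bcl-xL, was therefore a minor transcript in these cells, at 0.295 to 1.31 FPKM. Among the other pro-survival genes, Bcl2l2 (Bcl-w) was present at 4.19 to 7.59 FPKM, whereas Bcl2a1a, Bcl2a1b, Bcl2a1d and Bcl2l10 had group means of at most 0.575 FPKM. The effector transcripts came next after Mcl1 in WT cells at day 0, with Bax at 68.1 and Bak1 at 26.9 FPKM. Bok, the remaining effector, had group means of at most 0.215 FPKM. Of the BH3-only members, Bid and Pmaip1 were the most abundant at day 0 in WT cells (17.2 and 13.7 FPKM), Bbc3 was lower (3.39 FPKM) and Bcl2l11 lowest (0.635 FPKM). These levels describe RNA only, and several of the encoded proteins, Mcl1 and Noxa among them, are known to turn over quickly.

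**Figure D1:**
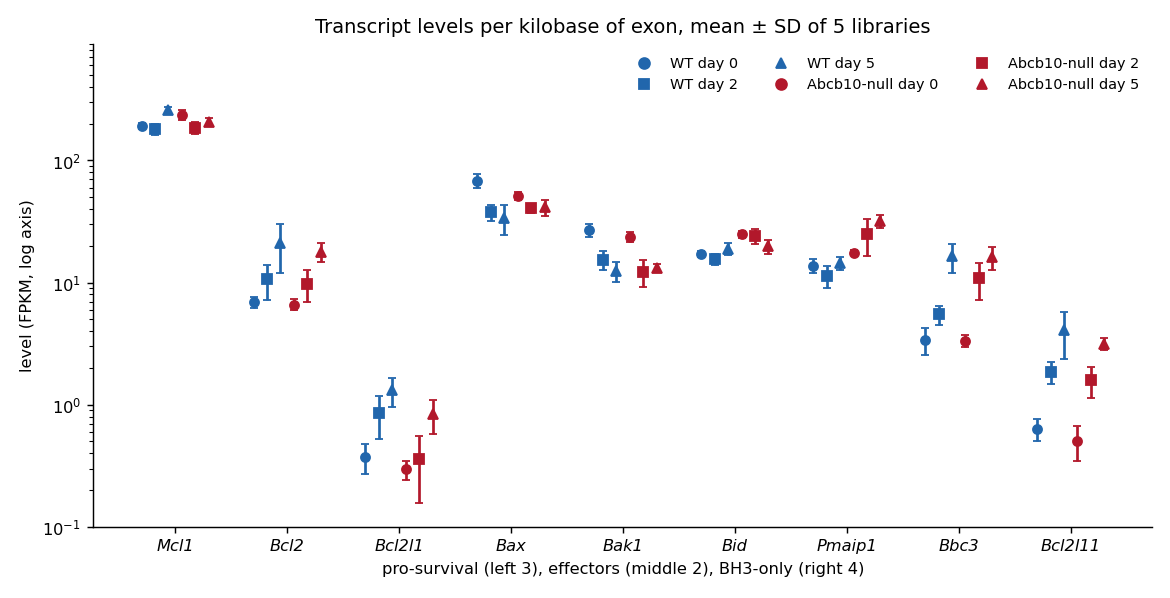
Mean level of each Bcl2 family transcript in FPKM (vertical log axis) in WT (blue) and Abcb10-null (red) cells at day 0 (circles), day 2 (squares) and day 5 (triangles), with bars for the SD of 5 libraries. Mcl1 sits near the top at 181 to 262 FPKM in all 6 groups and Bcl2l1 at the bottom at 0.295 to 1.31 FPKM.

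Promoter sequence is shown only for the windows that held a match to a FOXO motif. They belong to Bcl2l11 and Bbc3, both known targets of the FOXO factors. These were also the pair among the 9 whose transcripts rose most by day 5 of DMSO in both genotypes (described later in the text). The 250 bases before each RefSeq start site (GRCm38.p6) were searched on both strands for a FOXO motif (TGTTTAC), an ATF4-CHOP composite motif (TGATGNAA) and a GATA motif (AGATAA). These windows were available for 8 of the 9 genes, 13 windows in all. Pmaip1 had no window, so its promoter was not searched. The FOXO motif was found in 1 window of Bcl2l11 and 1 of Bbc3, whose other windows held no match. The GATA motif was found in 1 window of Bcl2l1, 41 to 36 bases before the start, and the composite motif in none of the 13. Across 32851 windows of the same length, 3.17% held the FOXO motif, 3.45% the composite motif and 9.99% the GATA motif. The Bcl2l11 window lies on the + strand at chr2:128125788-128126037, where no annotated gene overlaps it, with the FOXO motif in reverse complement 227 to 221 bases before the start. The Bbc3 window lies on the + strand at chr7:16310011-16310260, inside the gene and outside its exons, with the motif 167 to 161 bases before that start. Both are written 5′ to 3′ with the motif in capitals. A match is a description of the sequence and not a measured binding site. Whether a match goes with the rise of these transcripts was not tested.
Bcl2l11: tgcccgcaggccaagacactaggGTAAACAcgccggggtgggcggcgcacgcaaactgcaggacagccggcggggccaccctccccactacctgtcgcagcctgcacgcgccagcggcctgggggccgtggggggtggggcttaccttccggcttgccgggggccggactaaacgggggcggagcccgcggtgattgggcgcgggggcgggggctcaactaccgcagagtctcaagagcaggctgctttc
Bbc3: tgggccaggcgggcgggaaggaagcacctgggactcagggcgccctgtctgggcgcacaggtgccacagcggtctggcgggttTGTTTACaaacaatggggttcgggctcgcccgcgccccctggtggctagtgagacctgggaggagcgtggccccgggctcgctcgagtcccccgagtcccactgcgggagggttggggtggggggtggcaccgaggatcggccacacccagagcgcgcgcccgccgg

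The question put to the genotypes was whether loss of Abcb10 changed these transcripts at each stage of differentiation. Before DMSO, Bid, Mcl1 and Pmaip1 were higher and Bax was lower in Abcb10-null cells. At day 2, Pmaip1, Bbc3 and Bid were higher and Bcl2l1 was lower. At day 5, Pmaip1 was still higher and Mcl1 was lower. In counts, 4 of the 9 transcripts passed the test at day 0 (adjusted p under 0.05, edgeR quasi-likelihood test), where 36.0% of all genes tested passed, 4 of 9 at day 2 against 31.8% of all genes, and 2 of 9 at day 5 against 37.6%. The shares of the 9 were thus near the background of each comparison. Without Abcb10-null day 2 replicate 2, WT day 5 replicates 2 and 5 and Abcb10-null day 5 replicate 4, the counts at days 0, 2 and 5 were 4, 5 and 2, where 36.0%, 40.6% and 42.3% of all genes passed. All 9 transcripts passed the low-count filter in every comparison.

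**Figure D2:**
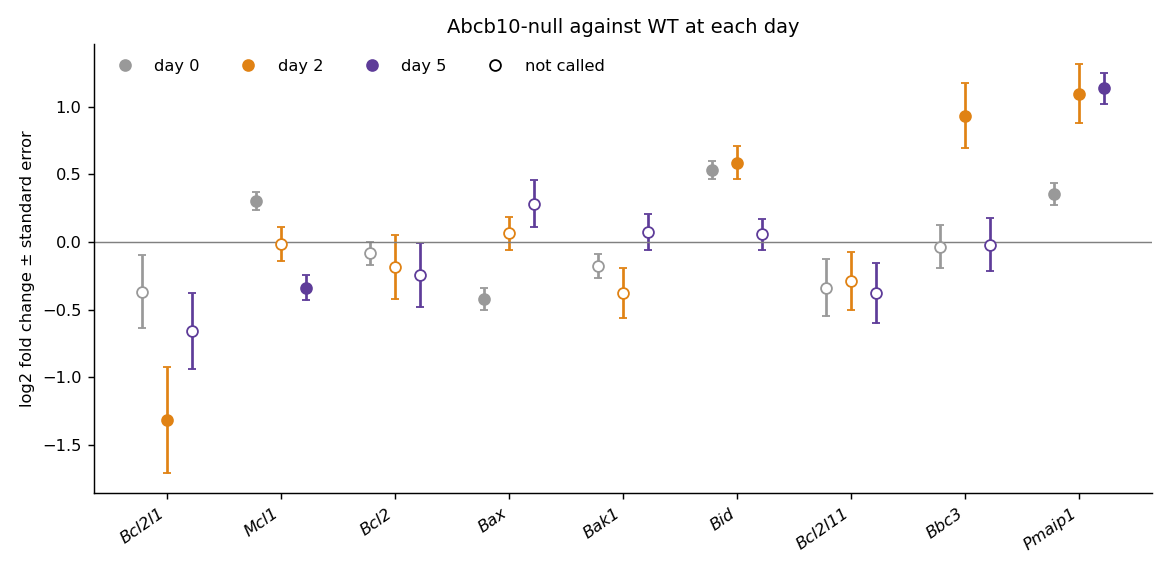
Log2 fold change of each transcript in Abcb10-null against WT cells (vertical axis, bars are the standard error of the edgeR fit, 5 against 5 libraries) at day 0 (grey), day 2 (orange) and day 5 (purple), with filled symbols where the adjusted p was under 0.05. Pmaip1 is the only transcript with a filled symbol at all 3 days, at 0.36, 1.09 and 1.14, and Bcl2l1 at day 2 lies lowest at -1.31.

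More of the 9 transcripts passed along time in DMSO than between genotypes, and the same held for all genes tested. In WT cells 6 of the 9 transcripts had changed by day 2 and 7 by day 5, where 62.2% and 71.2% of all genes changed. In Abcb10-null cells 7 had changed by day 2 and 8 by day 5, where 43.1% and 67.2% of all genes changed. Bcl2, Bcl2l11 and Bbc3 rose and Bax and Bak1 fell at both times in both genotypes. The comparisons of a genotype share their day 0 libraries, and the genotype and time comparisons share libraries too, so they are not independent of each other. Whether a transcript's course differed between genotypes was tested as an interaction. It differed for 3 of 9 by day 2 (Bax, Bbc3 and Pmaip1), where 22.8% of all genes passed, and for 4 of 9 by day 5 (Bax, Bid, Mcl1 and Pmaip1), where 31.5% passed. Without the 4 libraries farthest from their groups, the counts were 6 and 8 in WT cells (62.2% and 73.6% of all genes), 6 and 8 in Abcb10-null cells (48.5% and 67.5%) and 3 and 4 in the interactions (33.4% and 36.9%).

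**Figure D3:**
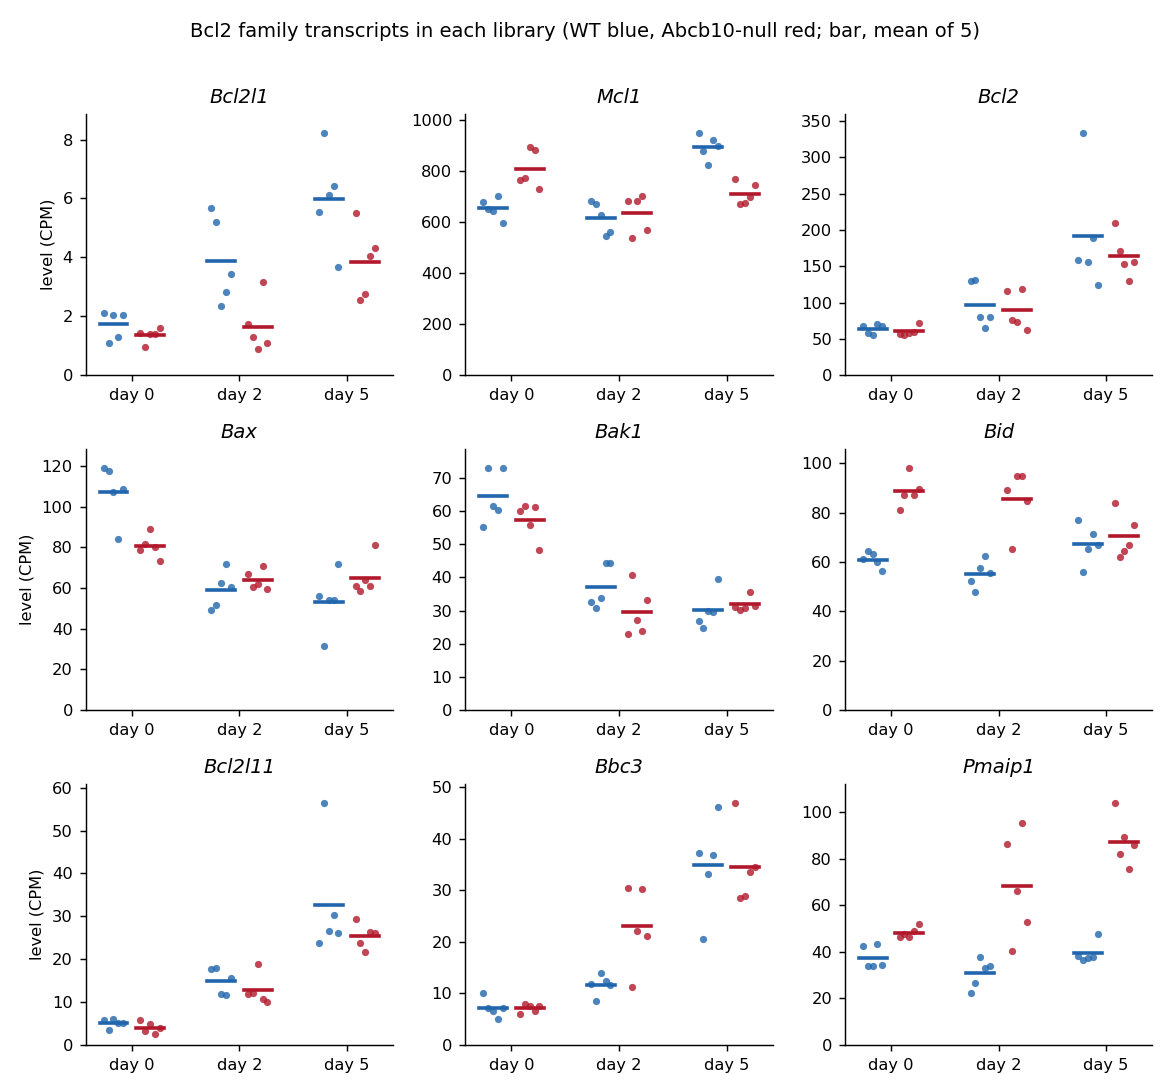
Level of each of the 9 transcripts in CPM (vertical axes, each starting at 0) in every library of WT (blue) and Abcb10-null (red) cells by day of DMSO, with a bar at the mean of 5 libraries. Pmaip1 points of Abcb10-null cells lie above all WT points at each day, while Bcl2, Bcl2l11 and Bak1 points of the genotypes overlap at each day.

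**Figure D4:**
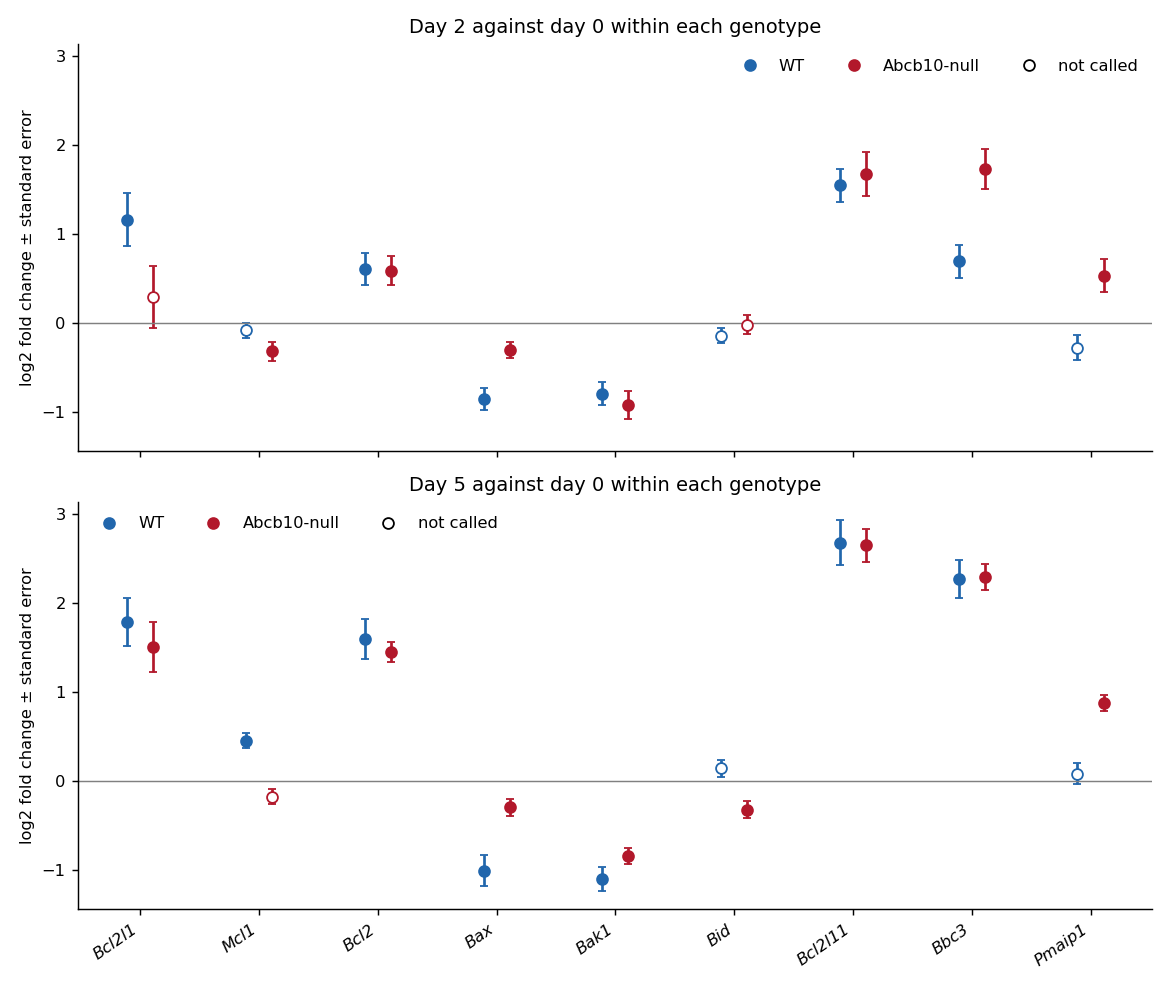
Log2 fold change from day 0 to day 2 (upper panel) and from day 0 to day 5 (lower panel) in WT (blue) and Abcb10-null (red) cells, with the standard error of the edgeR fit, and open symbols where the adjusted p was 0.05 or more. The courses of the genotypes lie apart for Pmaip1 (0.08 in WT and 0.87 in Abcb10-null cells by day 5), Mcl1 (0.45 and -0.18) and Bax (-1.01 and -0.30), and together for Bcl2l11 (2.67 and 2.64).

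Mcl1 encodes the short-lived pro-survival protein that binds Noxa and Bim (ENSMUSG00000038612, GRCm38 chromosome 3, 95658788 to 95663176, + strand, 3418 exon bases). At day 0 it stood at 678, 652, 644, 701 and 595 CPM in WT libraries, against 766, 774, 895, 882 and 728 CPM in Abcb10-null cells. The lowest Abcb10-null library was higher than the highest WT library, with a log2 fold change of 0.30 (SE 0.0673, adjusted p 0.00194, edgeR). At day 5 the order was the opposite. WT libraries held 948, 880.2, 823, 921 and 898 CPM and Abcb10-null libraries 768, 671, 673, 699 and 745 CPM. No library of the genotypes overlapped, and the log2 fold change was -0.34 (SE 0.0925, adjusted p 0.0119, edgeR). At day 2 the libraries were interleaved, at 546 to 681 CPM in WT and 536 to 702 CPM in Abcb10-null cells. Mcl1 rose with DMSO in WT cells by day 5 (log2 fold change 0.45, SE 0.0845, adjusted p 0.000326, edgeR). In Abcb10-null cells it fell by 0.32 on the log2 scale at day 2 (SE 0.106, adjusted p 0.0253, edgeR) and stood 0.18 below day 0 at day 5 (log2 fold change -0.18, adjusted p 0.0626, edgeR). The fall at day 2 passed the test in 6 of the 10 fits that left out a library, and did not pass without the libraries farthest from their group (adjusted p 0.0544). With all genes of at least 1 count, the day 5 genotype difference did not pass (adjusted p 0.228). The courses differed by -0.62 by day 5 (SE 0.11, adjusted p 0.000143, edgeR).

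Bcl2 (ENSMUSG00000057329, GRCm38 chromosome 1, 106538178 to 106714274, - strand, 9157 exon bases), the founding member of the family, passed the test in no genotype comparison and rose with DMSO in both genotypes. In WT cells it went from 67.1, 58, 55.5, 70.7 and 67.4 CPM at day 0 to 130.3, 131, 79.6, 64.6 and 80.6 CPM at day 2 and 158, 333, 156, 189 and 124 CPM at day 5. In Abcb10-null cells it went from 57.3, 55.9, 57.8, 59.8 and 71.5 CPM to 115, 76.6, 73.7, 118 and 61.6 CPM and then 209, 171, 154, 129 and 156 CPM. Every day 5 library lay above every day 0 library of its genotype, and the genotypes overlapped at each day. The log2 fold change by day 5 was 1.59 in WT cells (SE 0.224, adjusted p 2.66e-05, edgeR). It was 1.45 in Abcb10-null cells (SE 0.116, adjusted p 1.78e-08, edgeR). The interaction by day 5 was -0.14 (SE 0.264, adjusted p 0.728, edgeR). The WT libraries rich in long genes, day 2 replicates 1 and 2 and day 5 replicate 2, had the highest Bcl2 of the WT libraries of their own day. The share of protein-coding counts in genes of 8000 or more exon bases was 25.3% to 25.5% in the former pair, 20.08% to 21.04% in the other WT day 2 libraries and 31.3% in WT day 5 replicate 2, and Bcl2 is itself such a gene. The part of that measure in the Bcl2 values was not tested.

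Bcl2l1 (ENSMUSG00000007659, GRCm38 chromosome 2, 152780668 to 152831728, - strand, 4586 exon bases) was measured from 15 to 108 counts per library, the thinnest of the 9. At day 2 it stood at 5.66, 5.2, 2.34, 2.81 and 3.43 CPM in WT libraries, against 1.75, 1.29, 0.891, 3.16 and 1.09 CPM in Abcb10-null cells. Of the Abcb10-null libraries, 4 of 5 lay below every WT library, and replicate 4 lay among them. The log2 fold change was -1.31 (SE 0.39, adjusted p 0.0223, edgeR). With 1 library removed at a time, 7 of 10 fits still called it, and it was lost without WT replicate 1, WT replicate 2 or Abcb10-null replicate 3, with values from -1.69 to -1.14. Both WT replicates are the ones rich in long genes, and without them together the value was -0.86 (adjusted p 0.182, edgeR). At day 0 the log2 fold change was -0.37 (adjusted p 0.305, edgeR) and at day 5 it was -0.66 (adjusted p 0.0824, edgeR). Along the DMSO course Bcl2l1 rose in WT cells by 1.158 at day 2 (SE 0.299, adjusted p 0.00442, edgeR) and by 1.79 at day 5 (SE 0.272, adjusted p 5.55e-05, edgeR), on the log2 scale. In Abcb10-null cells the log2 fold change was 0.29 at day 2 (adjusted p 0.537, edgeR) and 1.50 at day 5 (SE 0.281, adjusted p 0.000188, edgeR). Every day 5 library lay above every day 0 library in both genotypes. A difference in course between genotypes was not shown, with an interaction of -0.89 by day 2 (SE 0.466, adjusted p 0.163, edgeR) and -0.28 by day 5 (SE 0.382, adjusted p 0.626, edgeR).

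The effectors Bax and Bak1, which form the pores of the outer mitochondrial membrane, fell with DMSO. Bax (ENSMUSG00000003873, GRCm38 chromosome 7, 45461697 to 45466898, - strand) stood at 119, 118, 107, 84.3 and 109 CPM in WT cells at day 0 and at 78.7, 81.4, 89.1, 80.3 and 73.3 CPM in Abcb10-null cells. Abcb10-null cells thus started lower, in 4 of 5 libraries below every WT library, by 0.42 on the log2 scale (log2 fold change -0.42, SE 0.0848, adjusted p 0.000797, edgeR). In the fit over all 30 libraries this difference no longer passed (adjusted p 0.0548). That fit called 1584 of 14702 genes at day 0, against 4642 of 12912 in the main fit. At day 2 the WT libraries had come down to 49, 51.8, 62.5, 72 and 60.5 CPM and the Abcb10-null libraries to 66.8, 60.4, 61.8, 71.1 and 59.4 CPM. At day 5 they held 55.9, 31.3, 53.9, 53.9 and 71.6 CPM and 61.1, 58.3, 64, 60.8 and 81.4 CPM. The genotypes overlapped at both days, and the log2 fold changes were 0.06 (adjusted p 0.713, edgeR) and 0.28 (adjusted p 0.22, edgeR). From day 0, Bax fell by 0.86 and 1.01 on the log2 scale in WT cells at days 2 and 5 and by 0.31 and 0.30 in Abcb10-null cells. The difference between those courses was 0.53 by day 2 (SE 0.156, adjusted p 0.0188, edgeR) and 0.72 by day 5 (SE 0.206, adjusted p 0.00975, edgeR). In the fit over all 30 libraries the falls in Abcb10-null cells at days 2 and 5 (adjusted p 0.0636 at day 5) and the day 2 difference (adjusted p 0.0638) did not pass.

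Bak1 (ENSMUSG00000057789, GRCm38 chromosome 17, 27019810 to 27029009, - strand) fell in both genotypes, and a difference between the courses was not shown (interaction 0.27 by day 5, SE 0.16, adjusted p 0.223, edgeR). It went from 55.2 to 73.0 CPM at day 0 to 24.6 to 39.5 CPM at day 5 in WT cells, and from 48.2 to 61.6 CPM to 30.3 to 35.7 CPM in Abcb10-null cells. Every library of days 2 and 5 lay below every day 0 library of its genotype. The log2 fold changes were -0.80 and -1.10 in WT cells at days 2 and 5 (adjusted p 0.000166 and 6.86e-06, edgeR). They were -0.92 and -0.85 in Abcb10-null cells (adjusted p 0.000493 and 4.92e-07, edgeR). Bak1 passed in no genotype comparison, with log2 fold changes of -0.18, -0.38 and 0.07 at days 0, 2 and 5 (adjusted p 0.134, 0.13 and 0.688, edgeR). Without Abcb10-null replicate 2, the highest of its group at 40.7 CPM, the day 2 value was -0.52 and passed. Bax shares 12.2% of its exon bases with the same-strand gene Gm45808, and 18.2% of those of Bak1 lie opposite Ggnbp1, so part of their reads may have been assigned or dropped there.

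Pmaip1 (ENSMUSG00000024521, GRCm38 chromosome 18, + strand, 2732 exon bases) encodes Noxa, the BH3-only protein that binds Mcl1, and was the transcript most clearly raised in Abcb10-null cells. At day 0 it stood at 42.3, 33.9, 33.8, 43.2 and 34.3 CPM in WT libraries, against 46.3, 47.5, 46.4, 48.9 and 51.8 CPM in Abcb10-null cells. At day 2 the values were 22.4, 26.6, 38, 33.3 and 34.1 CPM in WT and 86.4, 40.5, 66.2, 95.5 and 53 CPM in Abcb10-null cells. The day 5 values were 38, 36.4, 37.6, 37.8 and 47.9 CPM and 104, 82.2, 89.2, 75.8 and 85.8 CPM. At every day the lowest Abcb10-null library lay above the highest WT library. Such separation of the genotypes, in either direction, was seen for 3 of the 9 transcripts at day 0 (Bid, Mcl1 and Pmaip1), 2 at day 2 (Bid and Pmaip1) and 2 at day 5 (Mcl1 and Pmaip1), against 22.9%, 16.1% and 23.9% of all genes tested. The log2 fold change of Pmaip1 was 0.36 at day 0 (SE 0.082, adjusted p 0.00243, edgeR), 1.09 at day 2 (SE 0.217, adjusted p 0.00482, edgeR) and 1.14 at day 5 (SE 0.115, adjusted p 1.78e-05, edgeR). In means, this was 87.4 ± 10.6 against 39.6 ± 4.71 CPM at day 5 (SD, n = 5 each), a ratio of 2.21. In the fit over all 30 libraries, which called 1584 of 14702 genes at day 0, the day 0 difference did not pass (adjusted p 0.16).

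Along the course, Pmaip1 did not pass the test in WT cells, with log2 fold changes of -0.28 at day 2 (adjusted p 0.109, edgeR) and 0.08 at day 5 (adjusted p 0.566, edgeR). In Abcb10-null cells it rose by 0.53 at day 2 (SE 0.185, adjusted p 0.0336, edgeR) and by 0.87 at day 5 (SE 0.0894, adjusted p 3.28e-07, edgeR), on the log2 scale. The rise at day 2 lay near the threshold, and passed in 3 of the 10 fits that left out a library, with values from 0.39 to 0.68. The courses differed by 0.78 at day 2 (SE 0.248, adjusted p 0.0267, edgeR) and by 0.80 at day 5 (SE 0.145, adjusted p 0.000191, edgeR). The day 2 difference passed in 15 of 20 fits that left out a library, and was lost without WT day 0 replicate 4, WT day 2 replicate 1 or 2, or Abcb10-null day 2 replicate 1 or 4, at 0.61 to 0.92.

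Bbc3 (ENSMUSG00000002083, GRCm38 chromosome 7, 16308393 to 16318205, + strand, 2124 exon bases) encodes Puma, which binds all the main pro-survival proteins. The genotypes overlapped at day 0, at 5.08 to 9.97 CPM in WT and 5.93 to 7.87 CPM in Abcb10-null cells. At day 2 WT libraries held 11.8, 8.45, 14, 12.4 and 11.6 CPM and Abcb10-null libraries 30.5, 11.3, 22.2, 30.2 and 21.2 CPM. All Abcb10-null libraries but replicate 2 lay above every WT library, and the log2 fold change was 0.93 (SE 0.239, adjusted p 0.012, edgeR). At day 5 the genotypes overlapped again, at 37.2, 20.6, 33.1, 36.8 and 46.2 CPM and 46.9, 28.5, 28.9, 33.5 and 34.6 CPM, with a log2 fold change of -0.02 (SE 0.194, adjusted p 0.949, edgeR). The transcript had thus risen in both genotypes by day 5, by 2.26 in WT cells (SE 0.215, adjusted p 6.95e-07, edgeR) and 2.29 in Abcb10-null cells (SE 0.148, adjusted p 1.61e-09, edgeR) on the log2 scale, and the Abcb10-null cells were ahead at day 2. By day 2 it had risen by 0.69 in WT cells (adjusted p 0.00623, edgeR) and 1.73 in Abcb10-null cells (adjusted p 5.92e-05, edgeR), and these differed by 1.02 (SE 0.304, adjusted p 0.0203, edgeR). That difference was lost in 1 of 20 fits, without Abcb10-null day 2 replicate 4. By day 5 the interaction was 0.03 (adjusted p 0.942, edgeR).

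Bid (ENSMUSG00000004446, GRCm38 chromosome 6, 120891930 to 120916853, - strand, 3550 exon bases), which carries signals from death receptors to mitochondria, was higher in Abcb10-null cells at day 0 and day 2. At day 0 it stood at 61.1, 64.2, 63.1, 60.1 and 56.2 CPM in WT libraries, against 81.2, 87, 98, 87.1 and 89.5 CPM in Abcb10-null cells. At day 2 the values were 52.4, 48, 57.7, 62.4 and 55.4 CPM against 89, 65.1, 94.6, 94.9 and 84.6 CPM. The genotypes did not overlap at either day, with log2 fold changes of 0.53 (SE 0.0672, adjusted p 6.37e-06, edgeR) and 0.58 (SE 0.122, adjusted p 0.00559, edgeR). By day 5 Abcb10-null libraries had come down to 83.7, 62, 64.3, 66.9 and 74.8 CPM, among the WT libraries at 77, 56, 65, 71.3 and 66.9 CPM. The log2 fold change was then 0.06 (SE 0.116, adjusted p 0.728, edgeR). The fall from day 0 in Abcb10-null cells was 0.33 on the log2 scale (log2 fold change -0.33, SE 0.0922, adjusted p 0.00531, edgeR), and the course differed from that of WT cells by -0.46 (SE 0.132, adjusted p 0.01, edgeR). With no filter beyond 1 count per gene that difference did not pass (adjusted p 0.142). Of the exon bases of Bid, 17.7% lie opposite Bcl2l13, and the strand setting of the counting is not given in the sources used here.

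Bcl2l11 (ENSMUSG00000027381, GRCm38 chromosome 2, 128126038 to 128162547, + strand, 8029 exon bases), the gene of Bim, rose with DMSO by more than any other of the 9 at day 5 and passed the test in no genotype comparison. In WT cells it went from 5.84, 3.43, 6.05, 5.01 and 5.17 CPM at day 0 to 17.8, 17.9, 11.9, 11.7 and 15.6 CPM at day 2 and 23.8, 56.4, 26.5, 30.2 and 26 CPM at day 5. In Abcb10-null cells it went from 5.82, 3.21, 4.79, 2.56 and 3.89 CPM to 11.9, 12.2, 18.8, 10.7 and 9.95 CPM and then 29.4, 23.7, 21.7, 26.3 and 26.1 CPM. Neither the day 2 nor the day 5 libraries overlapped those of day 0 in either genotype. By day 5 the log2 fold change was 2.67 in WT cells (SE 0.254, adjusted p 6.83e-07, edgeR) and 2.64 in Abcb10-null cells (SE 0.188, adjusted p 4.75e-09, edgeR), with an interaction of -0.02 (adjusted p 0.976, edgeR). The genotype differences were -0.34, -0.29 and -0.37 at days 0, 2 and 5 (adjusted p 0.228, 0.319 and 0.201, edgeR). Like Bcl2, Bcl2l11 is a long gene, and its highest value, 56.4 CPM, came from WT day 5 replicate 2, the library with 31.3% of protein-coding counts in long genes.

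In the order of the 6 group means, most neighbouring groups overlapped for every transcript. For Pmaip1 all neighbours overlapped, so its groups formed a graded series from WT day 2 (30.9 ± 6.25 CPM) to Abcb10-null day 5 (87.4 ± 10.6 CPM, SD, n = 5 each). For Bcl2l11 the order broke between day 0 and day 2 and again between day 2 and day 5, where neighbouring groups did not overlap. For Bak1 it broke between WT day 2 and Abcb10-null day 0, the lowest of the untreated groups. The neighbours WT day 0 and Abcb10-null day 5 did not overlap for Bcl2l1. Abcb10-null day 2, ranked below both, still reached 3.16 CPM, above the lowest Abcb10-null day 5 library at 2.55 CPM.

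Levels per kilobase were summed by role over the members only. Bid, Bcl2l11, Bbc3 and Pmaip1 made up the BH3-only sum, and Mcl1, Bcl2 and Bcl2l1 the pro-survival sum. Other genes of these roles were left out, among them Bad (14.1 FPKM in WT cells at day 0), Bik and Bcl2l2. The BH3-only members summed to 34.9 ± 2.16 FPKM in WT and 46.4 ± 2.16 FPKM in Abcb10-null cells at day 0. The sums were 34.2 ± 3.88 and 61.6 ± 14.9 FPKM at day 2 and 53.9 ± 5.82 and 71.2 ± 9.55 FPKM at day 5 (SD, n = 5 each). The pro-survival members summed to means of 198.7 and 243.6 FPKM at day 0, 192.1 and 195.9 FPKM at day 2 and 283.9 and 226.8 FPKM at day 5, with SDs of 11.8 to 24.6 FPKM. The ratio of the former to the latter was 0.168 to 0.185 in WT and 0.173 to 0.218 in Abcb10-null libraries at day 0. At day 2 it was 0.140 to 0.221 against 0.242 to 0.353, and at day 5 0.155 to 0.222 against 0.297 to 0.352. The genotypes did not overlap in this ratio at days 2 and 5. The makeup of the BH3-only sum moved as well. Bid fell from 49.3% to 35.2% of it between day 0 and day 5 in WT cells and from 53.7% to 27.9% in Abcb10-null cells, and at day 5 Pmaip1 made up 26.9% in WT and 45.1% in Abcb10-null cells. These sums and ratios are given as a description with no test, as they follow from the single transcripts above and compare RNA, not protein.

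The other genes of the pathway were taken from lists of 62 genes, of which 53 passed the low-count filter. At day 0, 17 were higher and 8 lower in Abcb10-null cells (47.2% against 36.0% of all genes tested). At day 2, 7 were higher and 10 lower (32.1% against 31.8%), and at day 5, 11 were higher and 10 lower (39.6% against 37.6%). Day 0 was the time at which further BH3-only genes stood higher. Bmf, Bik, Bnip3 and Bnip3l, 4 of the 5 others tested, passed at day 0, and the list had a median log2 fold change of 0.54 against -0.00188 over all genes. Bmf, a BH3-only gene held at the cytoskeleton in its protein form, had the largest difference, 1.97 (adjusted p 0.000414, edgeR), at levels of 0.219 to 0.850 CPM in WT and 1.00 to 2.67 CPM in Abcb10-null cells. Bnip3, a mitophagy receptor with a BH3-like region, was higher by 0.56 (adjusted p 5.65e-05, edgeR). It did not pass in the fit over all 30 libraries (adjusted p 0.302), which called 1584 of 14702 genes at day 0. By day 2 Bik alone of these passed, at 0.72 (adjusted p 0.0424, edgeR), and at day 5 none of the 5 did, with median log2 fold changes of -0.15 and -0.26. Bcl2l2, the other pro-survival gene tested, was higher at day 0 by 0.34 (adjusted p 0.00428, edgeR) and did not pass later.

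The counts that follow stand beside 36.0%, 31.8% and 37.6% of all genes called at days 0, 2 and 5, and for lists this short nothing is read from their distance to those shares. Downstream of the mitochondria, among 10 genes of the apoptosome and the caspases, 3 were higher and 1 lower at day 0, 1 higher at day 2, and 2 higher and 1 lower at day 5. The lower gene at day 0 was Cycs, encoding cytochrome c, at -0.49 (adjusted p 0.000174, edgeR), and at day 5 it was Casp6, an executioner caspase, at -1.04 (adjusted p 0.000539, edgeR). Of 7 inhibitor of apoptosis genes and their antagonists, 3 were higher and 1 lower at day 0, 1 lower at day 2 and 2 lower at day 5. Of 6 death receptor genes, 3 were higher at day 0, 3 lower at day 2 and none called at day 5. Among these Tnfrsf1a, a receptor of tumor necrosis factor, was lower at day 2 by 1.49 on the log2 scale (log2 fold change -1.49, adjusted p 0.00397, edgeR). Of 6 genes of erythropoietin and growth factor signalling, 3 were higher at day 0, 1 higher at day 2, and 2 higher and 3 lower at day 5. Of 6 mitochondrial partners and turnover genes of the family, none was called at day 0, 1 was lower at day 2, and 2 were higher and 2 lower at day 5.

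The p53 list, 7 genes with Trp53 and its classical targets, had 3 lower at day 0, 4 lower at day 2, and 1 higher and 1 lower at day 5, where 36.0%, 31.8% and 37.6% of all genes were called. Trp53 itself was at 34.8, 37, 22.5, 21.4 and 28.7 CPM in WT and 12.2, 16.6, 12.2, 9.79 and 13.6 CPM in Abcb10-null cells at day 2, with no overlap and a log2 fold change of -1.22 (adjusted p 0.00273, edgeR). It was lower at day 0 and day 5 too, at -0.39 (adjusted p 0.00478, edgeR) and -1.06 (adjusted p 0.00531, edgeR). Zmat3, a p53 target, was lower at day 2 at -1.34 (adjusted p 0.00686, edgeR). Pmaip1, a gene that p53 can activate, was higher at the same 3 days. The part of Trp53 in the level of Pmaip1 was not tested.

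The stress regulators Atf4, Ddit3 (CHOP), Trib3 and Chac1, genes of the integrated stress response, moved the other way between day 0 and the later days. At day 0, Atf4, Ddit3 and Trib3 were lower in Abcb10-null cells, at -0.48, -0.38 and -0.60. In the fit over all 30 libraries Atf4 (adjusted p 0.206) and Trib3 (adjusted p 0.624) did not pass at day 0, where 1584 of 14702 genes passed. At day 2 all 4 were higher, Trib3 by 3.91 (adjusted p 0.00324, edgeR), Chac1 by 3.23 (adjusted p 0.00155, edgeR), Ddit3 by 2.75 (adjusted p 0.00421, edgeR) and Atf4 by 1.00 (adjusted p 0.012, edgeR) on the log2 scale. At day 5 all 4 were higher again, at 3.07, 4.27, 1.77 and 1.43 in the same order of genes. The libraries within a group differed widely in these genes. At day 2 Trib3 stood at 728, 23.2, 964, 960.0 and 242 CPM in Abcb10-null replicates 1 to 5 and at 24.9 to 49.9 CPM in WT libraries, and at day 5 at 771, 926, 982, 753 and 977 CPM against 25.5, 18, 26.3, 31.5 and 429.7 CPM. Abcb10-null day 2 replicate 2 was thus at the WT level of Trib3, and it also had the lowest Pmaip1 and the lowest Bbc3 among the Abcb10-null day 2 libraries, at 40.5 and 11.3 CPM. The same library had the lowest Bid and Mcl1 (65.1 and 536 CPM) and the highest Bak1 (40.7 CPM) of that group. Replicate 3 had the highest Trib3 of the group, with Pmaip1 at 66.2 CPM, below replicates 1 and 4 at 86.4 and 95.5 CPM. WT day 5 replicate 5 had the highest Trib3 of its group, and it also had the highest Pmaip1 and the highest Bbc3 of that group, at 47.9 and 46.2 CPM. Its Bax and Bak1 were the highest of the group too, at 71.6 and 39.5 CPM. Without Abcb10-null day 2 replicate 2, WT day 5 replicate 5 and the others farthest from their groups, the log2 fold change of Pmaip1 was 1.23 at day 2 (adjusted p 0.000539, edgeR) and 1.22 at day 5 (adjusted p 4.59e-06, edgeR), and that of Bbc3 at day 2 was 1.11 (adjusted p 0.000752, edgeR). The part of the stress genes in the levels of Pmaip1 and Bbc3 was not tested.

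**Figure D5:**
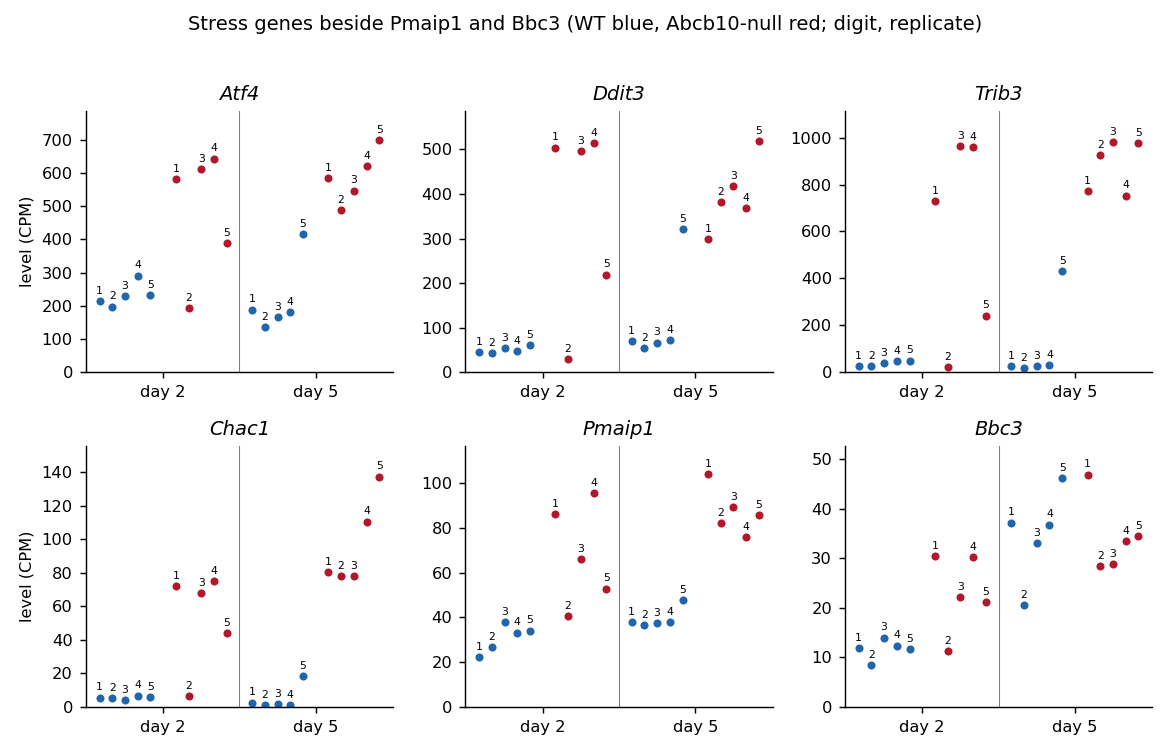
Level in CPM (vertical axes, each starting at 0) of Atf4, Ddit3, Trib3, Chac1, Pmaip1 and Bbc3 in each WT (blue) and Abcb10-null (red) library at days 2 and 5, with digits for the replicates. Abcb10-null day 2 replicate 2 lies with the WT libraries in the stress genes (Trib3 at 23.2 CPM) and is lowest of its group in Pmaip1 and Bbc3, and WT day 5 replicate 5 is the highest of its group in all 6 genes.

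Foxo3, which encodes a transcription factor known to drive Bcl2l11 and Bbc3 when survival signalling is low, rose with DMSO in both genotypes, by 3.32 in WT cells and 2.17 in Abcb10-null cells at day 5 on the log2 scale (adjusted p 4.33e-07 and 2.35e-10, edgeR). It rose less in Abcb10-null cells, with an interaction of -1.14 (adjusted p 0.00882, edgeR), and at day 5 it was lower there by 1.09 (log2 fold change -1.09, adjusted p 0.0106, edgeR). At that day the genotype differences of Bcl2l11 and Bbc3 were -0.37 and -0.02, neither past the test. The part of Foxo3 in their levels was not tested.

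The genes most alike to each of the 9, by Pearson's r of log2 CPM over the 30 libraries among 14693 genes, are given as a description, since the libraries share groups and depth. Pmaip1 was most like Arl14ep, Cebpg and Zfp131 (r 0.966, 0.957 and 0.949), of which Cebpg encodes a bZIP partner of Atf4. Bbc3 was most like Gadd45a, a growth arrest and DNA damage gene, Zbtb24 and Tprgl (0.966, 0.962 and 0.954). Bcl2l11 was most like Abca5, Il6st and Xpr1 (0.969, 0.963 and 0.959), and Bcl2 like Btbd7, Taok1 and Vcpip1 (0.969, 0.961 and 0.954). Bax was most like Psmb6, a proteasome subunit gene, Gm3375 and Grpel1 (0.947, 0.942 and 0.936), and Bak1 like Hsp90b1 and Pdia6, genes of chaperones of the endoplasmic reticulum, and Slc48a1 (0.943, 0.940 and 0.938). The likeness was weaker for Bid, with Haus2, Ifi27 and Trim30a (0.853, 0.841 and 0.834), for Bcl2l1, with Ppp1r10, Parp6 and Ddhd1 (0.893, 0.893 and 0.879), and for Mcl1, with Gm2016, Gm5662 and H2-T23 (0.826, 0.823 and 0.820). Within the family, the highest values were Bcl2 with Bcl2l11 (0.878), Bcl2 with Bcl2l1 (0.843) and Bbc3 with Bcl2l11 (0.813), and Bak1 with Bcl2l11 was the most negative (-0.817).

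The day 2 genotype calls did not hold without WT day 2 replicates 1 and 2, the libraries rich in long genes. Without both, 0 of the 9 transcripts passed at day 2 and 0 in the day 2 interaction by edgeR's adjusted p, while 4 and 3 had an unadjusted p under 0.05. Without them 5.46% of all genes passed at day 2 and 12.3% in the interaction, while the change of WT cells from day 0 to day 2 still held 6 of the 9 (57.8% of all genes). The 4 transcripts called with all libraries kept their direction, with log2 fold changes of -0.86 for Bcl2l1 (adjusted p 0.182), 0.91 for Pmaip1 (adjusted p 0.0521), 0.82 for Bbc3 (adjusted p 0.0851) and 0.50 for Bid (adjusted p 0.0546, edgeR). Of the 5 others, Bax, Bcl2 and Mcl1 changed sign, to -0.069, 0.21 and 0.088, and none of these passed with or without the pair. Among the pathway genes, Ddit3 (2.64, adjusted p 0.0502, edgeR) and Zmat3 (-1.01, adjusted p 0.065, edgeR) also lost their day 2 calls. With 1 library left out, the day 2 genotype calls over all genes were 2791 without WT replicate 1 and 2744 without WT replicate 2. They ran from 2665 without Abcb10-null replicate 1 to 5357 without Abcb10-null replicate 2. No other pair was left out, so whether the loss is particular to these libraries was not tested.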

How the data were processed

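Stranded, ribosomal RNA- and globin-depleted libraries of WT and Abcb10-null MEL cells were sequenced. The authors aligned reads to GRCm38 with STAR 2.6.1b and deposited raw counts per gene from featureCounts 1.6.3. The labels call the 5 samples of a group biological replicates without saying whether they were separate cultures, so p-values measure the spread between these samples, which may be partly technical. Counts of the 9 genes were 15 or more in every library.

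Counts were tested with edgeR 4.0.16 (R 4.3.3; TMM, filterByExpr, quasi-likelihood F test, Benjamini-Hochberg over all genes tested), on the libraries of the groups compared only. Exon lengths came from GENCODE annotation of GRCm38 and promoters from RefSeq. On simulated counts of the day 5 genotype comparison, 70 of 98 genes changed by 1 on the log2 scale and 90 of 97 changed by 2 were recovered, with 8 false calls among 12240 genes. For the day 5 interaction, 57 of 98 and 80 of 99 were recovered, with 6 false calls among 13509 genes. The simulations changed a far smaller share of genes than passed in the data. Named pathway genes were the 3 called genes with the largest change in each direction at each day, with others named as examples of a list or after their values were seen (Atf4, Bik, Bnip3l, Bcl2l2, and Foxo3 along the course). Members and lists were chosen with earlier results of these data known, and 1 gene that the lists hold is not reported here. The main fits did not pair samples by replicate number. Over 75 pairs with the same number, correlations of deviations from the group mean ran from -0.26 to 0.43 (median -0.0145). Pairs with different numbers were not compared, so whether the numbers pair the samples was not tested. The alternatives were DESeq2 1.42.0, its size factors, other filters, a fit over all 30 libraries, a replicate block, removal of globin and mitochondrial genes, and leaving out libraries, of which leaving out those farthest from their group and those rich in long genes was chosen after seeing the data.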

Additional observations from a re-analysis of the deposited data

Results flagged for a closer look

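Single libraries stood off from their group of 5 by Dixon's criterion in 6 of 54 groups of values, where chance gives about 1 in 20. They were Bcl2 in Abcb10-null day 0 replicate 5 (71.45 CPM), Bax in Abcb10-null day 5 replicate 5 (81.38 CPM), Bak1 in Abcb10-null day 5 replicate 4 (35.71 CPM), Bcl2l11 in WT day 5 replicate 2 (56.44 CPM) and in Abcb10-null day 2 replicate 3 (18.82 CPM), and Pmaip1 in WT day 5 replicate 5 (47.9 CPM). Each was the highest of its group.

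The change from day 0 differed between genotypes by the interaction test of edgeR for 3 transcripts by day 2, Bax by 0.53, Bbc3 by 1.015 and Pmaip1 by 0.78 on the log2 scale. By day 5 it differed for 4, Bax by 0.72, Pmaip1 by 0.80, Bid by -0.46 and Mcl1 by -0.62. The adjusted p-values stand with each transcript above. For Mcl1 the means moved in opposite directions from day 0, up in WT and down in Abcb10-null cells, and the fall by day 5 did not pass the test on its own (adjusted p 0.0626, edgeR).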

How the results depend on the processing

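Of the counts of transcripts called, those that moved by over 1.5 times were the day 0 genotype count, which was 2 in the fit over all 30 libraries (4 as reported), the day 5 genotype count, which was 1 with all genes of at least 1 count (2 as reported), and the day 2 genotype and interaction counts, which were 0 and 0 without the WT day 2 libraries richest in long genes (4 and 3 as reported). The calls over all genes moved too. At day 0 they were 1584 of 14702 genes in the fit over all 30 libraries (4642 of 12912 as reported). At day 5 they were 3802 of 43723 genes with all genes of at least 1 count (4769 of 12676 as reported). Without the WT day 2 libraries richest in long genes, the calls over all genes fell from 4151 to 738 of 13508 genes at day 2. In the interaction they fell from 3188 to 1791 of 14544 genes, and the cause was not tested. With 1 library left out at a time, the counts at days 0, 2 and 5 ran from 4 to 5, 3 to 5 and 2 to 3 between genotypes, 6 to 6 and 7 to 8 in WT cells and 5 to 7 and 8 to 9 in Abcb10-null cells along the course, and 2 to 3 and 4 to 5 in the interactions. Of the 12878 to 14510 genes tested in these fits, 4004 to 4779, 2665 to 5357 and 3787 to 5594 passed between genotypes. Along the course 7508 to 8277 and 8725 to 9609 passed in WT cells and 4709 to 6366 and 8375 to 8822 in Abcb10-null cells. In the interactions 2366 to 4760 and 3855 to 5228 passed.

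With the replicate number as a block the counts were 4, 4, 2, 6, 7, 6, 8, 3 and 4 in the order of the comparisons above. The calls over all genes were then 4220, 3955, 4378, 7431, 8816, 4863, 8437, 3079 and 4241, among the same genes tested as in the main fits. The block lost the rise of Pmaip1 at day 2 in Abcb10-null cells (adjusted p 0.0566, edgeR) and gave the opposite sign for the day 5 interaction of Bcl2l11 (0.0081), a value near 0 in either fit. The numbers share no source in the labels, and 8 of 75 pairs had a correlation over 0.1.

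Signs turned only in values that did not pass the test. The day 2 genotype value of Mcl1 was 0.00079 with DESeq2, 0.00080 with its size factors, 0.017 with all genes of at least 1 count, 0.040 in the fit over all 30 libraries, 0.041 without the libraries farthest from their group and 0.088 without the long-rich pair. Without that pair Bcl2 was 0.21 and Bax -0.069 between genotypes at day 2, and the day 2 interactions of Bcl2 and Bid were 0.31 and -0.0080. Without the libraries farthest from their group, the day 5 genotype values of Bcl2 and Bid were 0.0083 and -0.030, Bid at day 2 in Abcb10-null cells was 0.069, and the day 5 interactions of Bcl2 and Bcl2l11 were 0.14 and 0.26. With only genes of at least 10 counts in every library the day 5 interaction of Bbc3 was -0.0069.

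Leaving out 1 library gave both signs between genotypes for Bbc3 at day 0 (-0.15 to 0.093), Mcl1 at day 2 (-0.054 to 0.041), and at day 5 for Bak1 (-0.0023 to 0.18), Bbc3 (-0.17 to 0.090), Bcl2 (-0.38 to 0.041) and Bid (-0.015 to 0.11). It did so along the course for Pmaip1 in WT cells by day 5 (-0.0053 to 0.11) and by day 2 in Abcb10-null cells for Bcl2l1 (-0.068 to 0.46) and Bid (-0.050 to 0.069). It did so in the interactions by day 2 for Bcl2 (-0.21 to 0.058) and Bcl2l11 (-0.12 to 0.23) and by day 5 for Bbc3 (-0.12 to 0.15), Bcl2 (-0.28 to 0.16) and Bcl2l11 (-0.15 to 0.28). Without globin and mitochondrial genes all 81 values of the 9 transcripts kept their sign and call, and with DESeq2 79 of 81 did. Depth limits Bcl2l1 most, at 15 to 108 counts per library.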
